A study of Macaca mulatta with 27 samples.

Results

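POU5F1, SOX2 and NANOG are the transcription factors at the centre of the pluripotent state, and their RNA was measured in 10 embryonic stem cell lines of the rhesus macaque. The members are all probe sets that the platform annotation gives to 1 of these genes alone: 1 probe set for POU5F1 (MmuSTS.2285.1.S1_at), 3 for SOX2 (MmugDNA.27729.1.S1_at, MmugDNA.26127.1.S1_at and MmugDNA.26126.1.S1_at) and 1 for NANOG (MmugDNA.16220.1.S1_at). They are 5 of 52707 probe sets and 3 of 14132 named genes on the array. A probe set is a group of short oligonucleotides that together read 1 transcript, so levels of different probe sets depend on their affinity and are not ranked against each other. The SOX2 probe sets are called by their numbers, 27729, 26127 and 26126.

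The study used 27 Affymetrix rhesus arrays, each with RNA from colonies of 1 line that had been scraped off mitomycin C-treated mouse feeder fibroblasts. All lines grew from inner cell masses isolated by immunosurgery, in serum replacer medium with bFGF, activin A and hLIF, and each line goes back to 1 embryo. The male lines were 106, 306, 906, 2706 and 3106 (15 arrays) and the female lines 206, 2406, 2906, 3006 and 3806 (12 arrays). There were 3 arrays for each line but 206, with 2, and 2906, with 1, and an array is named here by its line and a letter. The pedigree joins 106, 206 and 306 as a triplet of full siblings (sire M106, dam F244) and 2706, 2906, 3006 and 3106 as a quadruplet (M106, F88). The remaining dams were F77 with M106 for 2406, F32 with M106 for 3806, and F183 with M36 for 906. Nothing in the labels ties the arrays of a line to separate cultures, so p-values among lines reflect only the spread between arrays, and that spread may be technical.

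As background, POU5F1 (OCT4) is a POU-domain factor and SOX2 an HMG-box factor, and in mouse and human embryonic stem cells they bind side by side on composite DNA sites in the enhancers of pluripotency genes. NANOG is a homeodomain factor that occupies many of the same enhancers, and the 3 factors bind the control regions of their own genes and of each other. In primate embryonic stem cells, activin and NODAL signals acting through SMAD2 and SMAD3 help to maintain NANOG. POU5F1 and NANOG have processed pseudogenes in primates; whether these or mouse feeder RNA bind the probes was not tested.

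Array quality varied in ways that touch the values below. Present calls covered 38.2% to 46.9% of an array's probe sets. The GAPDH ratio (the 3' probe set over the 5' one, higher in degraded RNA) was 13.3 on 2906d, the only array of its line, and over 3 on 5 others (3006a, 106c, 3006c, 2406d and 2406e). The 4 highest array medians were those of 106c, 206c, 306c and 906c. The brightest probe set of each array ran from 14.98 (2406a) to 16.52 (106c) on the log2(signal + 16) scale, which is used for every level below.

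POU5F1 RNA was detected on every array and stood among the brightest signals of the array in all 10 lines. The line means averaged 14.38 ± 0.14 (SD, n = 10 lines), and its present call held on 27 of 27 arrays. The triplet lines gave 13.98, 15.07 and 14.19 on 106a, 106c and 106d, 14.24 and 14.56 on the arrays of 206, and 14.00, 14.41 and 14.25 on those of 306. The quadruplet lines gave 14.07, 14.27 and 14.20 in 2706, 14.54 in 2906, 14.79, 14.45 and 14.58 in 3006, and 14.10, 14.42 and 14.55 in 3106. The values of 906 were 14.62, 14.28 and 14.46, those of 2406 were 14.03, 14.39 and 14.15, and those of 3806 were 14.57, 14.47 and 14.16. The highest and the lowest of the 27 arrays, 106c and 106a, were both of line 106, and the arrays of neighbouring lines overlapped throughout. Since RNA was taken from whole colonies, fewer cells that express a factor and less of its RNA per cell cannot be told apart, for this and for every level below.

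The order of POU5F1 line means ran from 14.18 in 2706 to 14.61 in 3006, a range of 0.43 or 1.35-fold. The largest gap between neighbours in that order was 0.13, which is 0.50 of the SD between arrays of a line (0.27). Gaps between ranked means are small by construction, so they cannot decide whether lines differ. A random effects decomposition put 0% of the variance of POU5F1 between lines, against a median of 20.9% over the 32856 probe sets that passed the filter on low signal and 30.9% over the 3286 brightest of them. Array 106c bears on the POU5F1 value: without it 27.1% of the variance of POU5F1 lay between lines. The medians above include 106c, and those without it are not given here. Estimates below 0 were set to 0%, where 25.3% of all tested probe sets and 11.6% of the 3286 brightest stood. The range of POU5F1 line means was smaller than that of nearly all tested probe sets, at percentile 4.35. The median range was 0.95 over all tested probe sets and 0.72 over the 3286 brightest. Without array 106c the POU5F1 range was 0.52. All 5 member probe sets passed the filter.

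**Figure D1:**
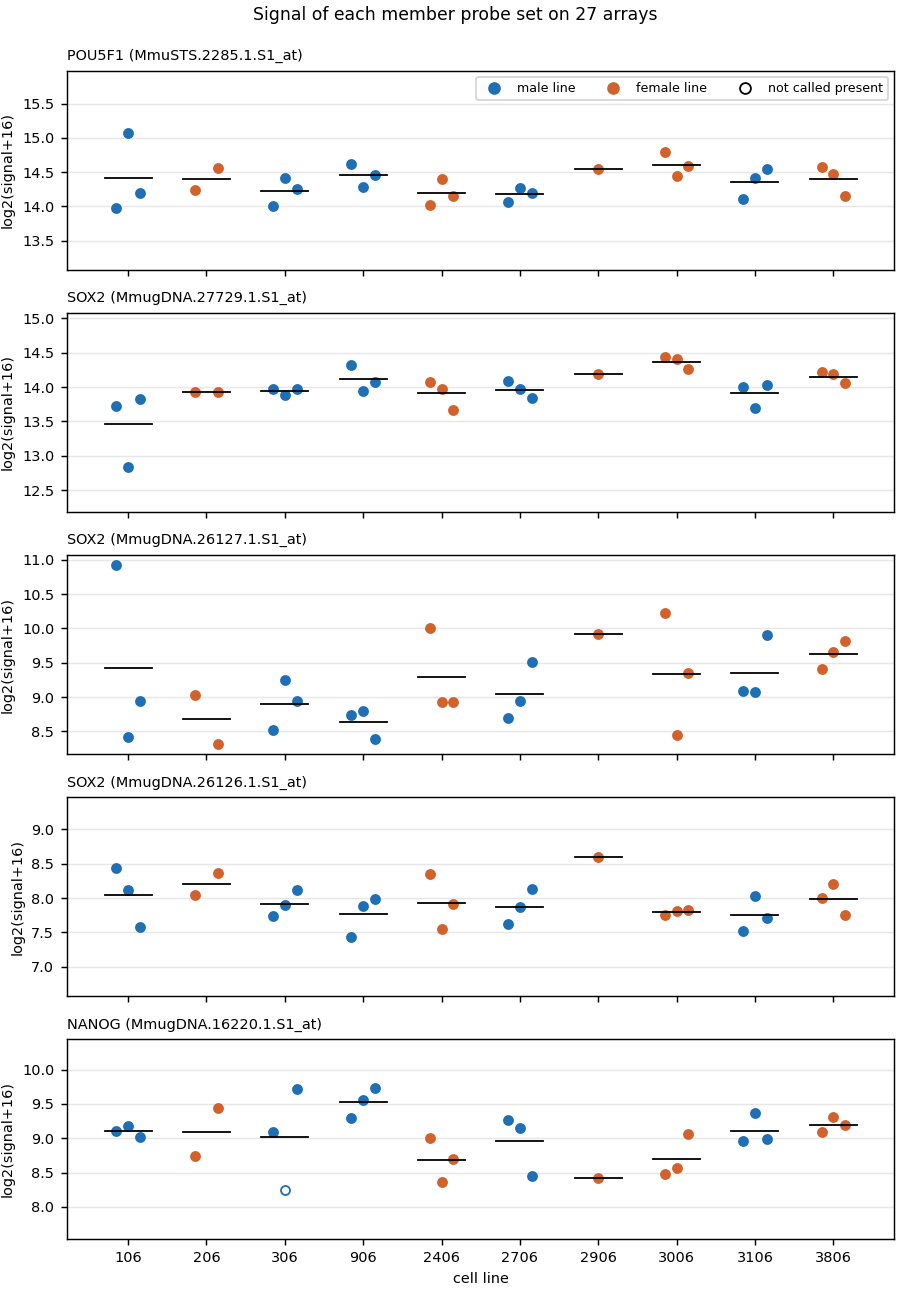
Signal of the 5 member probe sets on each of 27 arrays, as log2(signal + 16), by cell line; points are arrays (blue, male lines; orange, female lines; open, not called present) and black bars are line means. POU5F1 and SOX2 27729 lie above 12.8 on every array, array 106c holds the highest POU5F1 value (15.07) and the lowest SOX2 27729 value (12.83), and the open NANOG point is array 306b.

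The brightest SOX2 probe set, 27729, was also detected on all 27 arrays, with line means of 13.99 ± 0.24 (SD, n = 10 lines). In the triplet lines its values were 13.73, 12.83 and 13.83 on 106a, 106c and 106d, 13.93 on both arrays of 206, and 13.97, 13.89 and 13.96 in 306. In the quadruplet lines they were 14.09, 13.97 and 13.84 in 2706, 14.19 in 2906, 14.43, 14.40 and 14.26 in 3006, and 13.99, 13.70 and 14.03 in 3106. Line 906 gave 14.33, 13.95 and 14.08, line 2406 gave 14.08, 13.97 and 13.67, and line 3806 gave 14.21, 14.19 and 14.05. Array 106c lay far below the next lowest array, 2406e, and all 3 arrays of 3006 lay above every array of 106.

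Line means of SOX2 27729 ran from 13.46 in 106 to 14.36 in 3006, a range of 0.90 or 1.87-fold. The step from 106 to 3106, the next line up, was 0.44 or 1.92 times the SD between arrays of a line (0.23), and every other neighbour lay within that SD. Of its variance, 43.5% lay between lines. Without array 106c the range fell to 0.58 and the SD between arrays to 0.14, 54.3% of the variance lay between lines, and 106 was still the lowest line. On array 106c the GAPDH ratio was 4.61 and the highest signal the largest of all arrays; the part of either in the low SOX2 value was not tested.

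The other SOX2 probe sets gave lower signals that were called present on all 27 arrays, and they ordered the lines differently. Probe set 26127 ranged over 2.61 units among arrays, with a low of 8.31 on 206c, a median of 9.04 and a high of 10.93 on 106a. The 3 arrays of line 106 alone gave 10.93, 8.42 and 8.94, so that a range of 1.28 in line means (8.64 in 906 to 9.92 in 2906) stood against an SD of 0.66 within a line. That SD was larger than for 90.2% of tested probe sets. Between lines lay 0% of the variance, or 30.8% without the 6 arrays whose GAPDH ratio exceeded 3. Probe set 26126 ran from 7.44 on 906a through a median of 7.89 to 8.60 on 2906d, and its line means from 7.76 in 3106 to 8.60 in 2906. Line 2906 stood 0.40 above the next line, 206, but rests on the 1 array with a GAPDH ratio of 13.3.

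No pair of SOX2 probe sets had line means that were correlated by a permutation test. Over 10 line means, 27729 and 26127 had Pearson r = 0.120 (permutation p = 0.754) and Spearman rho = 0.127. For 27729 and 26126, r was 0.0169 (permutation p = 0.953), and for 26127 and 26126 it was 0.466 (permutation p = 0.176). Adjusted over the 3 pairs by Benjamini-Hochberg, these permutation p-values were 0.953, 0.953 and 0.527. Leaving out the 2 lines farthest from the median of the first probe set gave r = 0.471, 0.469 and 0.724. Leaving out line 2906 gave -0.0699, -0.440 and -0.0946. Deviations of 26 single arrays from their line mean gave 0.392, -0.250 and 0.365, as a description. Within an array, the difference of 27729 and 26127 ran from 2.80 (106a) to 5.95 (3006b), so the probe sets did not move as copies of 1 measurement.

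NANOG gave a mid-range signal, with line means of 8.98 ± 0.31 (SD, n = 10 lines). It was called present on 26 of 27 arrays and absent on 306b, where its value was lowest. The triplet lines gave 9.11, 9.18 and 9.02 in 106, 8.75 and 9.45 in 206, and 9.10, 8.24 and 9.71 in 306. The quadruplet lines gave 9.27, 9.15 and 8.45 in 2706, 8.42 in 2906, 8.49, 8.56 and 9.06 in 3006, and 8.96, 9.37 and 9.0 in 3106. Line 906 gave 9.30, 9.55 and 9.74, line 2406 gave 9.01, 8.36 and 8.69, and line 3806 gave 9.09, 9.31 and 9.20. The arrays of 306 alone spanned nearly the whole range of the study, 8.24 to 9.74, while those of 906 all lay at 9.30 or above.

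NANOG line means were lowest in 2906 (8.42) and highest in 906 (9.53), a range of 1.11 or 2.15-fold. The largest gap between neighbours in the order, from 3806 to 906, was 0.33 or 0.886 of the SD between arrays of a line (0.37). As for POU5F1, such gaps cannot decide whether lines differ. Lines accounted for 16.8% of its variance, and for 0% without the 6 arrays whose GAPDH ratio exceeded 3.

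Against the spread within lines, 0 of the 5 member probe sets differed among the 10 lines in limma's F test after Benjamini-Hochberg adjustment, where 16.6% of 32856 probe sets (5460) passed. At an unadjusted p under 0.05, 10682 of the 32856 probe sets passed, and 1 of the 5 members did. This was SOX2 27729, with an adjusted p of 0.115 in limma's F test and between 0.056 and 0.586 over the alternatives. NANOG had an adjusted p of 0.333 in limma's F test, SOX2 26126 of 0.523, SOX2 26127 of 0.647 and POU5F1 of 0.775. An ordinary F test without moderation also called 0 of 5.

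Within its array, POU5F1 kept almost the same place whatever its signal. It was brighter than 99.52% to 99.68% of probe sets on every array, between rank 172 from the top on 3106b and rank 253 on 906c. On 106c, where its signal was highest, it ranked 174. SOX2 27729 lay at percentile 99.41 on the median array and 98.06 on 106c, where its rank fell to 1026; the next lowest rank was 434 on 3106b. NANOG lay between percentiles 69.1 and 83.1, and SOX2 26127 between 67.0 and 91.0.

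**Figure D2:**
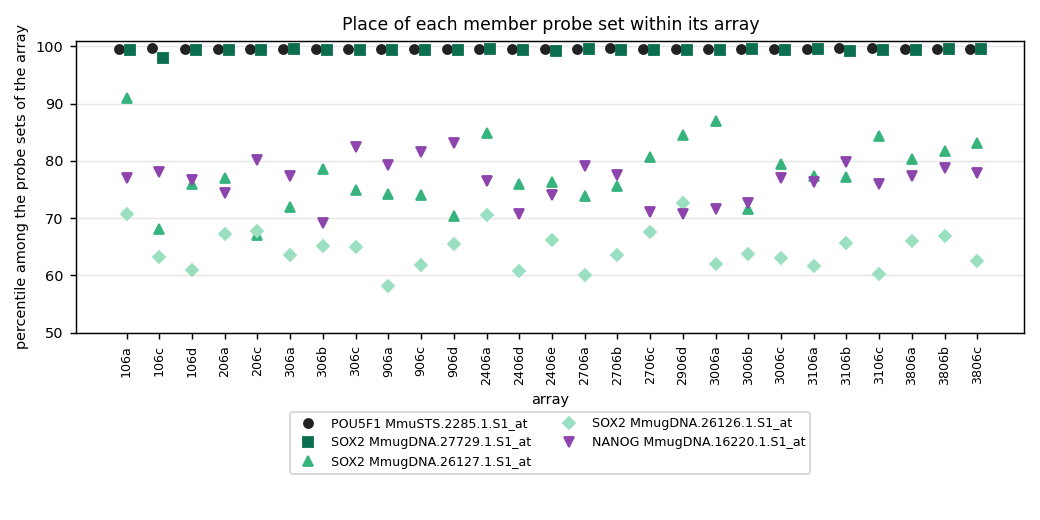
Percentile of each member probe set among the 52707 probe sets of its array, array by array (POU5F1 and SOX2 27729 are drawn slightly to the sides of the array's position so that both show). POU5F1 stays between 99.52 and 99.68 and SOX2 27729 drops to 98.06 on 106c, while NANOG and the other SOX2 probe sets spread between 58.1 and 91.0.

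The signal of POU5F1 rose and fell with the brightest signal of the array. Over 10 line means, POU5F1 and the log2 of the array's highest signal had Pearson r = 0.954 and Spearman rho = 0.976 (permutation p = 3.0e-05, 0.0006 adjusted by Benjamini-Hochberg over 20 relations of member probe sets with array values). Leaving out the 2 lines farthest from the median gave r = 0.908. Without array 106c r was 0.952, and 0.939 with the 6 arrays over a GAPDH ratio of 3 left out (9 lines). Deviations of 26 single arrays from their line mean gave 0.949, as a description. Both quantities come from the same array and share its scaling. After quantile normalization, which gives every array the same distribution, r was -0.279 (permutation p = 0.437) and the range of POU5F1 line means shrank from 0.43 to 0.11.

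The other brightest probe sets followed the top of the array less closely. For SOX2 27729, r with the highest signal was 0.445 (permutation p = 0.197, adjusted p = 0.438), and 0.869 without array 106c (permutation p = 0.00075). For NANOG it was -0.106. Quantile normalization left the NANOG range at 1.12 and brought that of SOX2 27729 to 0.58, with 2.38% of its variance between lines. No other relation with array values passed the adjustment. The nearest was POU5F1 with the share of probe sets called present (r = -0.794, permutation p = 0.00712, adjusted p = 0.0712). NANOG against the GAPDH ratio gave r = -0.736 (permutation p = 0.0122, adjusted p = 0.0814), which rests on 2 lines, since without the 2 farthest it was -0.196.

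**Figure D3:**
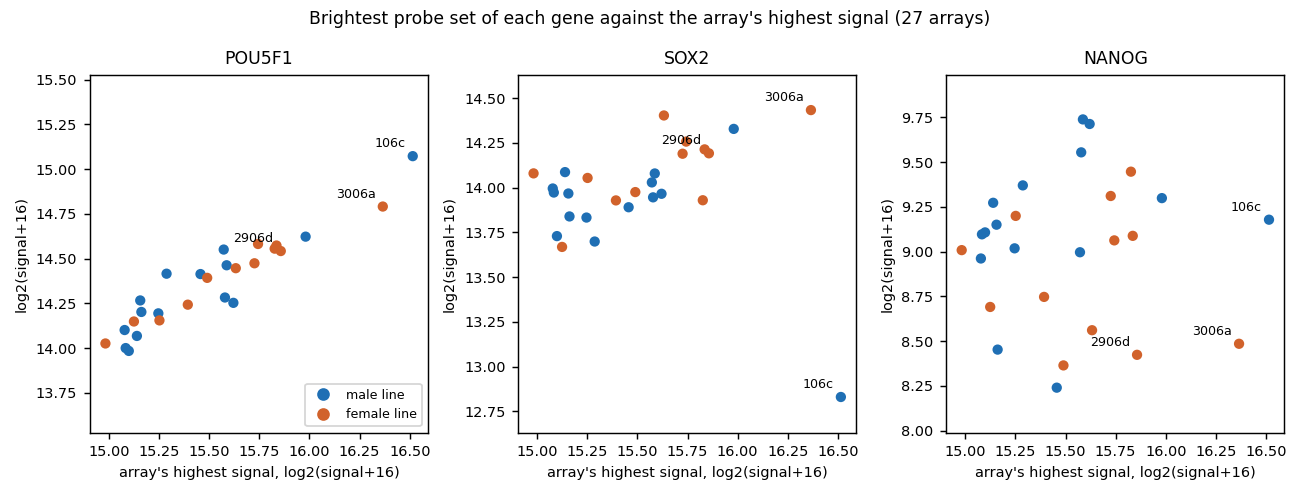
Brightest probe set of POU5F1, SOX2 and NANOG against the highest signal of the same array, 27 arrays, both as log2(signal + 16); blue points are male lines and orange points female lines, and each vertical axis spans 2 units. POU5F1 rises along the whole range to 15.07 on 106c, SOX2 rises except on 106c (12.83), and NANOG scatters (r = -0.106 over line means).

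The 3 factors did not rise and fall together across lines in a way that passed a permutation test. POU5F1 and SOX2 27729 had r = 0.449 over 10 line means (permutation p = 0.193; rho = 0.539, permutation p = 0.113), and 0.512 without the 2 lines farthest from the median. POU5F1 and NANOG had r = -0.120 (permutation p = 0.739; rho = 0.0545) and SOX2 and NANOG r = -0.251 (permutation p = 0.483; rho = -0.236), and without the 2 farthest lines -0.459 and -0.0205. Over the 3 pairs the Benjamini-Hochberg adjusted permutation p-values were 0.579, 0.739 and 0.724. Array 106c decides the first value: without it r for POU5F1 and SOX2 was 0.877 (permutation p = 0.00088), and with quantile normalization as well 0.253 (permutation p = 0.473). With all arrays and quantile normalization it was -0.0174.

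**Figure D4:**
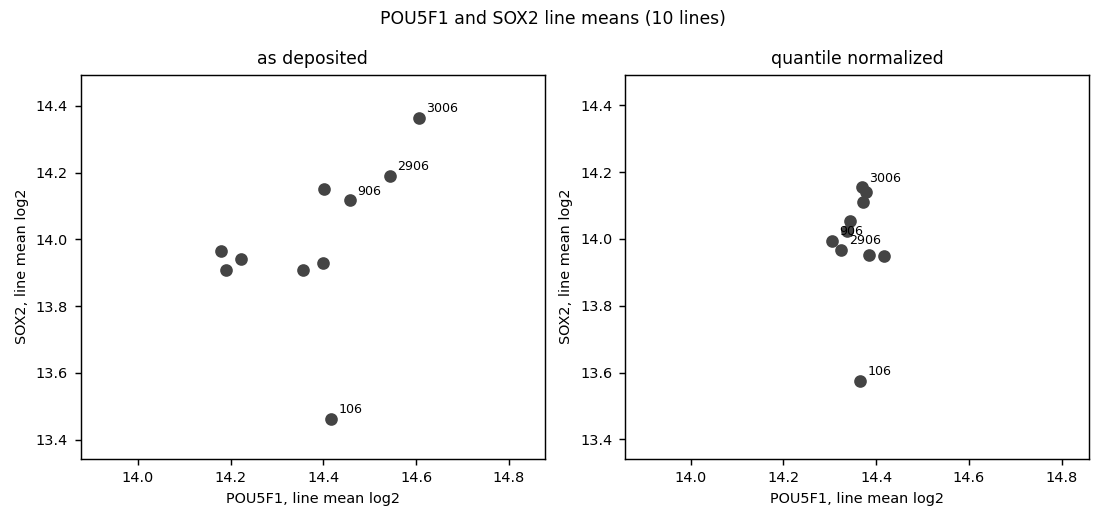
Line means of SOX2 27729 against POU5F1 in 10 lines, as log2(signal + 16), from the deposited values (left) and after quantile normalization (right), on axes of equal span. On the left 9 lines lie along a rising band and 106 lies below it, and on the right the POU5F1 means close up to a range of 0.11.

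The balance of the factors within a line was compared through differences taken on the same array, which cancel a common scaling. They do not cancel an array effect that differs between probe sets. With the array's highest signal, r over line means was 0.954 for POU5F1, 0.445 for SOX2 27729 and -0.106 for NANOG. SOX2 27729 minus POU5F1 was -2.24 on 106c, -0.34 on the median array and 0.05 at most, on 2406a. The other arrays of line 106, at -0.26 and -0.36, lay near that median. Line means ran from -0.95 in 106 to -0.22 in 2706 with an SD between arrays of 0.44, and no difference among lines passed the test (permutation F test, p = 0.691). NANOG minus POU5F1 ran from -6.12 in 2906 to -4.93 in 906 (permutation F test, p = 0.395). NANOG minus SOX2 27729 ran from -5.77 in 2906 to -4.36 in 106 (permutation F test, p = 0.0816, adjusted over the 3 differences 0.245).

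No difference between male and female lines passed the test for any of the factors. NANOG was 9.14 ± 0.23 (SD, n = 5) in male and 8.82 ± 0.32 (SD, n = 5) in female lines, with the highest line (906) male, the lowest (2906) female and the groups overlapping. The difference, male minus female, was 0.32 ± 0.18 (SE), with a 95% interval from -0.06 to 0.70 (limma, adjusted p = 0.774), and 0.17 without the 6 arrays whose GAPDH ratio exceeded 3. Leaving out 1 line gave 0.22 to 0.42, the largest without line 3806 (95% interval 0.03 to 0.80, limma adjusted p = 0.722). SOX2 27729 was 13.88 ± 0.25 and 14.11 ± 0.19, a difference of -0.23 ± 0.15 (-0.56 to 0.10; limma, adjusted p = 0.782), or -0.13 without line 106 and -0.29 without line 906. For SOX2 26127 the difference was -0.30 (limma, adjusted p = 0.797), and -0.47 without line 206 (95% interval -0.91 to -0.03, limma adjusted p = 0.457). POU5F1 was 14.33 ± 0.12 and 14.43 ± 0.16, a difference of -0.10 ± 0.13 (-0.38 to 0.17; limma, adjusted p = 0.868). With limma and Benjamini-Hochberg adjustment 0 of 5 member probe sets passed, against 0.0578% of all tested probe sets (19). At an unadjusted p under 0.05, 0 of 5 passed, against 1982 of 32856.

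The quadruplet and triplet lines overlapped in POU5F1 and SOX2 as well. SOX2 27729 averaged 14.11 ± 0.21 in the 4 quadruplet lines and 13.78 ± 0.27 in the 3 triplet lines, a difference of 0.33 ± 0.19 (SE; 95% interval -0.11 to 0.77; limma, adjusted p = 0.616), or 0.17 without line 106 and 0.41 without line 306. For NANOG the means were 8.80 ± 0.30 and 9.07 ± 0.05, a difference of -0.27 ± 0.19 (-0.71 to 0.16; limma, adjusted p = 0.672). It was -0.15 without line 2906, -0.38 without line 3106 and -0.03 without the 4 arrays of highest median. For POU5F1 the difference was 0.07 ± 0.17 (-0.30 to 0.45; limma, adjusted p = 0.903). The remaining SOX2 probe sets gave 0.41 ± 0.26 for 26127 and -0.05 ± 0.23 for 26126, with adjusted p of 0.636 and 0.957 in limma. Without line 2906 they were 0.24 and -0.25. Without line 106, SOX2 26127 gave 0.62 (95% interval 0.003 to 1.25, limma adjusted p = 0.715). With all lines, here too 0 of 5 passed at either threshold. Of tested probe sets, 0.0761% (25) passed the adjusted one and 3139 of 32856 the unadjusted one. The 2 families share their sire and differ in dam, and each family is 1 sample of that difference.

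**Figure D5:**
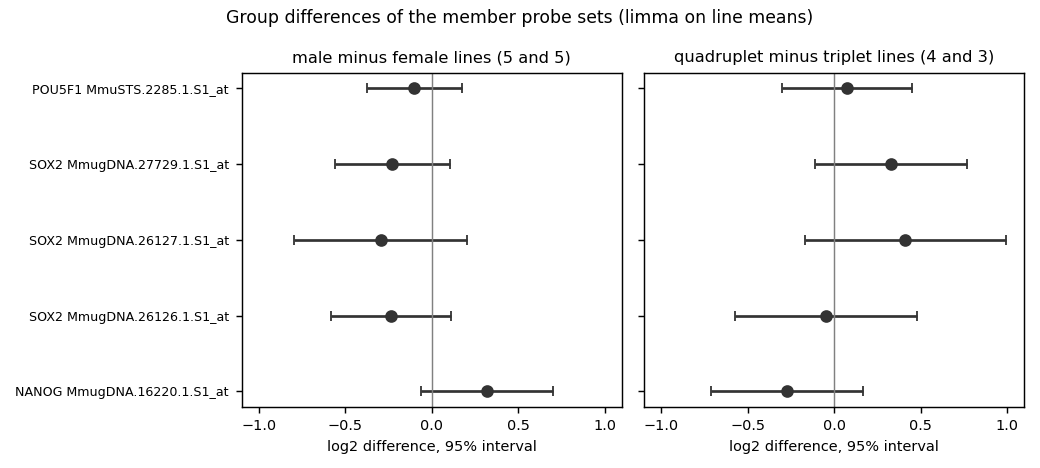
Differences of the 5 member probe sets between male and female lines (5 and 5) and between quadruplet and triplet lines (4 and 3), in log2 units with 95% intervals from limma on line means. All 10 intervals cover 0, and the widest, for SOX2 26127 between families, reaches from -0.17 to 0.99.

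The genes whose line means followed POU5F1 most closely were bright genes that also followed it across single arrays. Among 11314 other tested genes, the 5 with the highest Pearson r over 10 line means were the ribosomal protein genes RPL15 (0.980) and RPL30 (0.966), and LOC698713 (0.975), LOC694799 (0.975) and LOC693820 (0.966). Their deviations from line means over 26 arrays followed POU5F1 with r from 0.946 to 0.971. After quantile normalization the r of these genes over lines lay between -0.19 and 0.39, and 0 of the 5 stayed among the first 5. In all, 134 genes had r over 0.8 with POU5F1, with a median level of 14.45 against 9.28 for all genes; after quantile normalization 26 genes did.

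For SOX2 27729 the closest genes were MEOX1 (r = 0.952), RASSF2 (0.941), SFPQ (0.930), DOK3 (0.895) and FZD7 (0.892). MEOX1, a mesoderm homeobox gene, was called present on 0 arrays, so its values are background. SFPQ, a splicing factor present on all 27 arrays, also followed SOX2 across array deviations (0.872), as did FZD7, a WNT receptor gene (0.721). With quantile normalization 0 of these 5 stayed among the first 5, but RASSF2 (0.867), SFPQ (0.863) and MEOX1 (0.835) kept r over 0.8. In all 44 genes had r over 0.8, 29 after quantile normalization and 76 without line 2906. Array 106c, with the lowest SOX2 27729 value (12.83) and a GAPDH ratio of 4.61, enters all these r values. The r of these genes without it is not given here, so its part in the likenesses is open.

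For NANOG the closest genes were IMMP2L (0.945), MAD2L1 (0.942), SIX2 (0.934), ATG9B (0.928) and CYP11B2 (0.926). MAD2L1, a spindle checkpoint gene, and IMMP2L, a mitochondrial peptidase gene, kept r of 0.912 and 0.943 after quantile normalization. Across array deviations their r with NANOG was -0.069 and -0.423, so the likeness was between line means and not between arrays of a line. SIX2 was called present on 0 arrays. Genes with r over 0.8 numbered 253, and 243 with quantile normalization, and 182 had r under -0.8. Without line 2906, which rests on 1 array, the 253 became 151, and 1 of these 5 genes stayed among the first 5. These likenesses are over 10 points chosen as the highest of 11314 and carry no test.

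Genes known to work with the core factors were called about as often as other genes. Of 32 partners and co-regulators listed, 23 were on the array and 20 were tested, and 3 (15.0%) differed among lines by limma's F test, against 1967 of 11317 genes (17.4%). ZFP42, a zinc finger gene known as REX1, ran from 8.25 in 2906 to 9.89 in 306 (limma, adjusted p = 0.00966). KLF4, a reprogramming factor gene, ran from 8.17 in 3806 to 10.65 in 106 (limma, adjusted p = 0.0159). SMAD3, the activin and NODAL signal transducer, ran from 8.79 in 3806 to 10.45 in 2406 (limma, adjusted p = 0.000268). The median range of line means over the 20 was 0.99, against 0.86 for all genes. Without the 6 arrays whose GAPDH ratio was over 3, ZFP42 and SMAD3 were still called and KLF4 was not, while 8.22% of all genes were.

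Genes that the factors bind or drive in human or mouse embryonic stem cells made up the next list. Of 28 listed, 16 were on the array and 14 tested, and 7 (50%) differed among lines, against 17.4% of all genes, with a median range of 1.39 against 0.86. Whether the list differs from other genes was not tested; the 6 with the largest range are named. SPP1, which encodes osteopontin, ran from 10.11 in 2906 to 14.14 in 906 (limma, adjusted p = 0.00715). GDF3, a TGF-beta family ligand, ran from 5.85 in 3006 to 8.28 in 2406 (limma, adjusted p = 0.00443), and FGF4, a growth factor gene with a composite POU5F1 and SOX2 enhancer in the mouse, from 6.50 in 3006 to 8.77 in 2906 (limma, adjusted p = 0.00317). NODAL ran from 9.56 in 3806 to 11.15 in 3006, HESX1 from 8.84 in 106 to 10.42 in 2406, and the tetraspanin gene CD9 from 12.36 in 2406 to 13.78 in 906 (limma, adjusted p = 0.00586, 0.0448 and 0.0199). GDF3 was called present on 16 of 27 arrays and FGF4 on 24. Line 3006, with a GAPDH ratio over 3 on 3006a and 3006c, was lowest in GDF3 and FGF4 and highest in NODAL. It was also highest in SOX2 27729, and in POU5F1 as deposited, though after quantile normalization POU5F1 was highest in 3106 (14.42 against 14.37 in 3006). Without those 6 arrays, and likewise without the 4 arrays of highest median, 5 of 14 (35.7%) were called, and FGF4, NODAL, GDF3 and SPP1 were among them both times. Of all genes, 8.22% and 20.2% were called in these settings.

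Among close paralogs, SOX17, an endoderm gene, was the only 1 of 8 tested that differed among lines (12.5%, against 17.4% of all genes), from 6.86 in 106 to 9.28 in 2406 (limma, adjusted p = 0.0181). Without the 4 arrays of highest median the count was 4 of 8, with SOX11, SOX21 and POU3F1 added, while 20.2% of all genes were called. SOX3, which shares the subgroup of SOX2, was present on 27 arrays at 9.90 ± 0.41, and SOX4 and SOX11 on 27 arrays at 13.43 and 11.48. SOX21 was present on 3 arrays and POU3F1 on 11, and POU3F4 on 0.

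Markers of other cell types were measured for cells that could sit beside pluripotent cells in a colony. Their counts stand beside the 17.4% of all genes that differed among lines. Of endoderm markers, 4 of 6 tested differed among lines (GATA6, SOX17, FOXA2 and AFP), with a summed signal of 1290.2 on 306b to 8281.9 on 2406e. GATA6, SOX17 and FOXA2 were lowest in 106 and highest in 2406, but AFP was lowest in 2906 and highest in 906. GATA6 and AFP were present on 27 arrays, SOX17 on 19, FOXA2 on 15, GATA4 on 6 and CXCR4 on 4. Of trophoblast markers, 2 of 6 did (GATA3 and EOMES, with a summed signal of 1610.7 on 206a to 4338.4 on 2906d). TFAP2C was present on 27 arrays, GATA3 on 26, EOMES on 20, HAND1 on 11 and ELF5 on 1. CDX2, KRT7, GATA2 and TP63 were present on 0 arrays. Of mesoderm markers, 1 of 5 did (EOMES, with a summed signal of 652.8 on 306b to 4951.1 on 2406e). GSC was present on 26 arrays, MESP1 on 23, EOMES on 20, HAND1 on 11, MIXL1 on 5 and TBXT on 0. Of 2 neural markers on the array, PAX6 was present on 2 arrays and NEUROG2 on 0, and 0 of 1 tested was called. Of fibroblast and matrix markers, 2 of 7 did (COL1A1 and COL1A2; 10833.7 on 2906d to 45315.5 on 106c). COL1A2, FN1, THY1 and VIM were present on 27 arrays, COL1A1 on 24, DCN on 12, COL3A1 on 9 and LUM on 7. Without the 6 arrays whose GAPDH ratio exceeded 3, where 8.22% of all genes were called, the endoderm count was 2 of 6 (SOX17 and AFP), the trophoblast count 1 of 6 (EOMES) and the mesoderm count 2 of 5. Without the 4 arrays of highest median, where 20.2% were called, it was 3 of 6 for trophoblast, 2 of 5 for mesoderm and 4 of 7 for fibroblast and matrix markers. Without line 2906, where 13.2% of all genes were called, trophoblast and fibroblast markers each had 1 call (1 of 6 and 1 of 7). Array 106c had the highest summed signal of the fibroblast list together with the highest POU5F1 and lowest SOX2 27729 values. Array 2906d had the lowest sum of that list. The sum is of raw signals, so VIM, the brightest of the list on average (13.50, then FN1 at 11.61), weighs most. Whether the sum reads fibroblasts, and the part of such cells in the member values, was not tested.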

How the data were processed

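RNA of 27 samples from 10 lines (300 ng each, labelled as biotinylated cRNA) was read on Affymetrix rhesus arrays, as the labels' protocols say. The deposited intensity values, 1 per probe set and array, are from GCOS (per the submitters' processing notes, with the version not given in the sources used here). Their trimmed mean is 500.04 on every array, so the authors' deposited intensity values were already scaled to a common level. A second deposited table adds detection calls and filled 1 blank cell. Of 52865 probe sets, 158 controls were set aside. Probe sets were named through the platform annotation (24956 with 1 symbol, 361 with several, 27390 with none), and 24616 matched the RefSeq gene table of assembly T2T-MMU8v2.0. No sequence is shown.

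Signals were analysed as log2(signal + 16) without further normalization. On this scale a fold of a dim gene is understated. Probe sets with a signal over the array's median on at least 3 arrays were tested (32856, for 11317 genes). Limma 3.58.1 in R 4.3.3 tested lines on 27 arrays (F test), and sex and family on line means, with Benjamini-Hochberg adjustment and a threshold of 0.05. Correlations and differences within an array used 100000 permutations in scipy 1.17.1 (2-sided for correlations). The number of arrays limits the precision.

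The members and gene lists were chosen with earlier results of these data known. Each gene was represented by its brightest probe set on average. For each member gene, the 5 genes with the highest r over line means were named, and up to 6 called genes of each list with the largest range. Paralogs and markers given by level or detection alone, and EOMES, AFP and the collagens, follow their lists. Alternatives were other pseudocounts (1 and 64), other filters, median centring, quantile normalization, an array letter block, a random line block, no moderation, and leaving out arrays or lines. Added after seeing the data were fits without array 106c, alone or with quantile normalization, spread and array relations under those settings, and list counts on fewer arrays. The steps were tested on simulated data.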

Additional observations from a re-analysis of the deposited data

Results flagged for a closer look

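Of 32 groups of lines checked for a line far from the others, 6 held one; chance gives about 1 in 20. The groups overlap, and the 6 come from 3 lines, each counted in 2 groups. SOX2 27729 was 13.46 in line 106, against 13.91 in the next of 10 lines, and its difference from POU5F1 in that line was -0.95 against -0.47. Both rest on array 106c. SOX2 26126 was 8.60 in line 2906, the highest of 10 lines (next 8.21) and of the 4 quadruplet lines (next 7.88), on 1 array with a GAPDH ratio of 13.3. NANOG was 9.53 in line 906, against 9.11 in the next of 5 male lines, and its difference from POU5F1 there was -4.93 against -5.21. All 3 arrays of 906 had NANOG at 9.30 or above.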

How the results depend on the processing

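In the tests among lines, between sexes and between families, 0 member probe sets were called under every setting run (SOX2 26126 was not tested at the 75th percentile filter), while the number called over all probe sets moved. Among lines it was 3334 with median centring, 2615 without the arrays of high GAPDH ratio, and 3983 to 7317 leaving out 1 array. It was 45 by sex with the line as a random block (18 to 21 leaving out 1 line). By family it was 14 with no filter, 10 at the 75th percentile filter, 11 with the filter on present calls and 350 with the random block (4 to 55 leaving out 1 line). Array letters were not taken as pairs, since the labels do not say what they mean. Same-letter deviations exceeded r = 0.1 in 30 of 77 pairs (median 0.064), against 47 of 223 other pairs (median -0.026). The share was thus larger among same-letter pairs, and an effect shared by arrays of a letter was not tested. The letter as a replicate block gave 3940 calls among lines with 0 members.

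Directions turned for POU5F1 by sex with quantile normalization (0.0016), for SOX2 26127 by family without the arrays of high GAPDH ratio (-0.22), and for SOX2 26126 by family with quantile normalization (0.0043), median centring (0.0085), without the 4 arrays of highest median (0.050) and leaving out 1 line (-0.247 to 0.0354). The r of POU5F1 with SOX2 was -0.0174 with quantile normalization, -0.523 for array deviations, 0.932 without the 4 arrays of highest median, 0.877 without 106c, 0.380 without 2906, and 0.211 to 0.834 leaving out 1 of the other 9 lines (0.834 without line 106). That of POU5F1 with NANOG was 0.0545 as rho, 0.0442 with quantile normalization, 0.154 leaving out arrays by GAPDH ratio, 0.0492 without the 4 of highest median, 0.189 without 2906, and -0.325 to 0.0716 leaving out 1 of the other 9 lines. That of SOX2 with NANOG was -0.0927 without 2906 and -0.470 to -0.100 leaving out 1 of the other 9. The causes were not tested. The variance share of POU5F1 rose from 0% to 27.1% without 106c.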
